A study of Homo sapiens with 3 samples.

Results

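The genes described here are 45 named genes of the DNA damage response and DNA repair in RH30 cells. They were listed by name, with no threshold on a measured value, by which time earlier results of these data were known. RH30 is an established human line of alveolar rhabdomyosarcoma, a childhood tumour of skeletal muscle lineage. The cells had received an anti-MYCN peptide nucleic acid (PNA, a synthetic strand that carries the bases of DNA on an amide backbone) at 10 µM for 12 hours, a mutated PNA without activity, per the study's design text, at 10 µM for 12 hours, or nothing. Each condition had 1 array, 3 altogether. Differences are therefore between single arrays, with neither a replicate error nor a test. Of the 45 genes, 42 had a probe set that named them alone, out of 11963 genes with such a probe set on the array. BRCA2, FANCA and PMS2 had none and were not analysed here. The 42 genes had 70 probe sets, and each gene is given by its brightest, the one with the highest mean signal over the 3 arrays. A gene was counted as measured when that mean reached 117, the pooled median of all gene probe sets, and 37 of the 42 did, among 6745 genes overall. ATM, RAD52, ERCC4, ERCC6 and LIG4 did not.

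DNA damage is first sensed by kinases that halt the cell cycle, and is then repaired by routes that differ in the lesion they act on. Broken double strands are rejoined by homologous recombination, which copies a sister chromatid, or by end joining, which ligates the ends directly. Crosslinks between strands are handled by the Fanconi anaemia proteins, mispaired bases by mismatch repair, bulky and ultraviolet lesions by nucleotide excision repair, and damaged single bases and nicks by base excision and single-strand break repair. MYCN encodes a MYC-family transcription factor that binds the E-box CACGTG, and tumours driven by such factors are known for replication stress, which the checkpoint kinases ATR and CHEK1 answer.

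MYCN, the targeted gene, had a signal of 2202 in anti-MYCN PNA, 2804 in mutated PNA and 3313 in untreated cells. Its log2 differences were -0.35 to mutated PNA and -0.59 to untreated, and mutated PNA differed from untreated by -0.24. The smaller lay within 0.37, the range that held the control difference of 95% of genes of like signal. A dim MYCN probe set read 17.4 in anti-MYCN PNA, 29.8 in mutated PNA and 55.3 in untreated cells. Another read 11.3, 9 and 8.2 in the same order. Of 13 markers of myoblasts and alveolar rhabdomyosarcoma with a probe set, 9 were measured, among them MYOD1, the factor that defines the lineage, at 7834 in anti-MYCN PNA, 6266 in mutated PNA and 6715 in untreated cells, while CHRND, CHRNG, MYF6 and PAX7 were below the filter. None of 5 endothelial, 5 epithelial or 4 leukocyte markers passed, and 2 of 7 fibroblast markers did. The array labelled untreated carries a source name that says mutated PNA, whereas its title and treatment text say untreated, so any direction between the controls rests on that title. All 24 probe sets for the poly-A spikes, which this kind of assay adds before labelling, were lower in anti-MYCN PNA cells than in both controls, with median ratios of 0.382 to mutated PNA and 0.410 to untreated, against 1.06 for mutated PNA over untreated. Their part in the results below was not tested.

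Because MYC-family factors bind the E-box, the promoters of the repair genes were searched for CACGTG, which reads the same on both strands. RefSeq promoters (GRCh38.p14, from 250 bases before to 50 after each start site) were matched for 40 of the 45 genes, and 7 of the 40, or 17.5%, held the motif at any start site, against 8.77% of all 27305 genes in the same table. Among measured genes, 5 of 32 members, or 15.6%, held it, against 13.9% of 5688 genes. The windows below are those of measured members, each 30 bases from 5′ to 3′ on the gene's strand with the E-box in capitals, and a longer stretch is given for APEX1, the member with most copies.
RAD50, chr5:132556964-132556993, plus strand: ggcctagaggccCACGTGatccgcagggcg
FANCC, chr9:95317677-95317706, minus strand: atgcactgctgaCACGTGtgcgcgcgcgcg
LIG3, chr17:34980428-34980457, plus strand: gcaactacgaccCACGTGgcagacgggggc
UNG, chr12:109098113-109098142, plus strand: ccgcgaaaagacCACGTGgggacgcggtgg
APEX1, chr14:20455106-20455225, plus strand: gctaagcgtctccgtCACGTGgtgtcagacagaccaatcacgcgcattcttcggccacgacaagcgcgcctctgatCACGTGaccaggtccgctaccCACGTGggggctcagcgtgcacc
The APEX1 stretch holds 3 copies, at positions -105, -44 and -23 from the start site. UNG holds 2 copies, of which the one at position -47 is shown. The remaining members with the motif were BRCA2, which had no probe set that named it alone, and ERCC6, which was not measured. A match is a description of these letters only. Its carriers lay on both sides of the controls, as the values below show: FANCC was well above both, RAD50 and UNG below both, and LIG3 and APEX1 close to them.

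Taken over all routes, the repair genes were far from the controls about as seldom as all genes were. Among the 37 measured genes, 1 was at least 2-fold higher than both controls (ERCC2) and 1 at least 2-fold lower (ERCC5), against a background of 1.16% higher and 1.26% lower among all 6745 genes. At 1.5-fold, 3 were higher than both controls (ERCC2, FANCC and XRCC1) and 2 lower (ERCC5 and WRN), where the background was 8.27% and 7.37%. Disregarding size, 12 of the 37 lay above both controls and 19 below both, while 47.9% of all genes lay above and 37.6% below. The median log2 difference of the 37 was -0.07 to mutated PNA and -0.19 to untreated, and that of all genes was 0.06 in each comparison. Against mutated PNA alone, 1 gene was at least 2-fold higher and 1 lower (background 2.7% and 2.33%). Against untreated alone, 2 were higher, ERCC2 and FANCC, and 2 lower, ERCC5 and WRN (background 3.07% and 2.31%). At 1.5-fold, 3 were higher and 3 lower than mutated PNA, beside 13.1% and 10.7% of all genes, and 3 were higher and 5 lower than untreated, beside 13.1% and 10.4%. Both use the same anti-MYCN PNA array, so they are set side by side and not counted as separate support.

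The 2 controls are the only measure of background, and the repair genes, like most genes, were less than 1.5-fold apart between them. None of the 37 was 1.5-fold apart in mutated PNA against untreated cells in either direction, against 2.40% of all genes higher and 2.27% lower, and the differences ran from -0.40 for ERCC3 to 0.49 for OGG1, on the log2 scale. For each gene, the range that held the control difference of 95% of genes of like signal (10 classes of 674 or 675 genes) served as a yardstick. It was 0.94 in the dimmest class and 0.28 in the brightest. Over all genes, log2 differences had a standard deviation of 0.28 between the controls. From the anti-MYCN PNA array it was wider, 0.51 to mutated PNA and 0.51 to untreated. By this yardstick 8 of the 37 were beyond the control range against both controls in the same direction, or 21.6%, and 21.6% of all genes were. The 8 were ERCC2, FANCC and XRCC1 on the higher side and ERCC5, WRN, FANCI, PRKDC and XRCC5 on the lower side. Of these, ERCC2 was measured only through its anti-MYCN PNA signal.

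**Figure D1:**
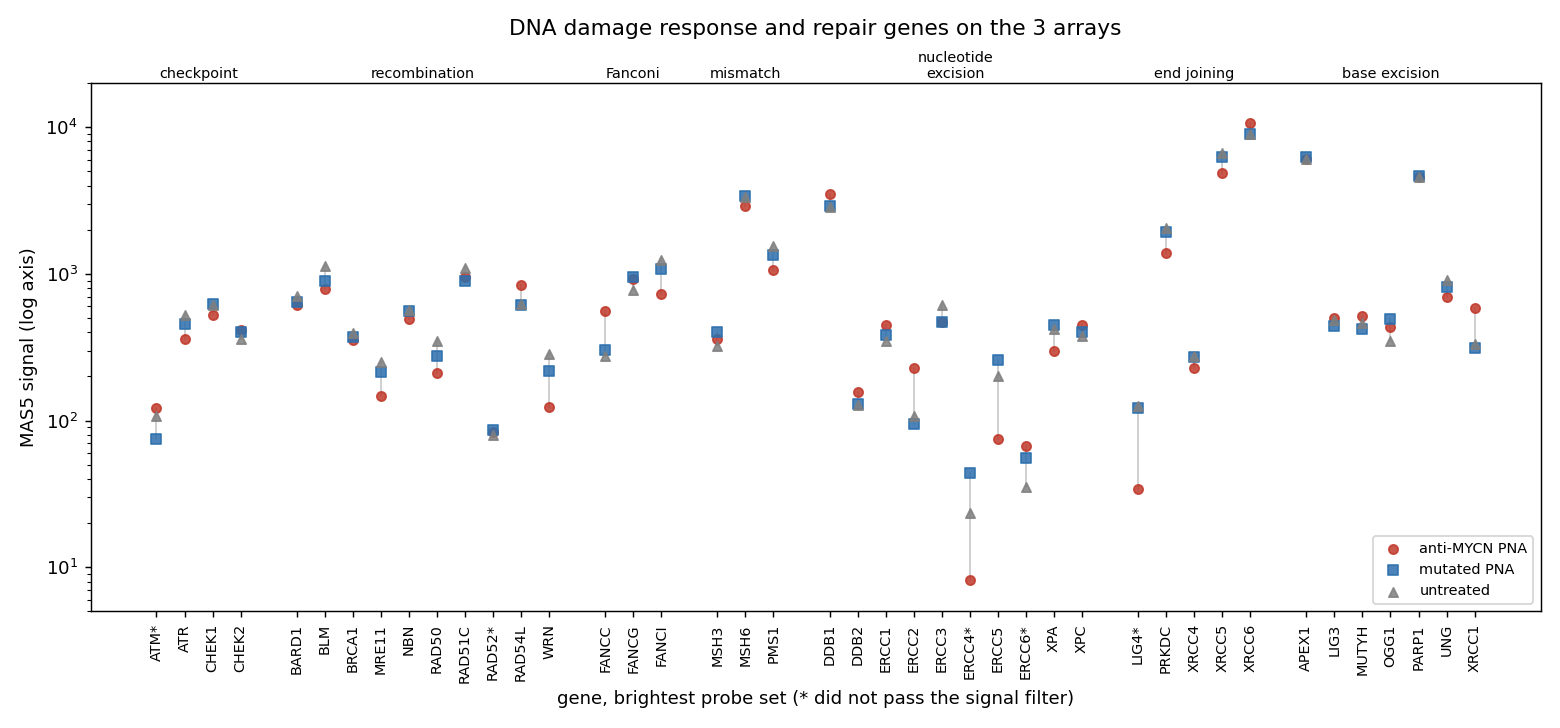
MAS5 signal (log axis) of the 42 repair genes with a probe set, by repair route, on the anti-MYCN PNA (circles), mutated PNA (squares) and untreated (triangles) arrays, 1 array each. The circle is lowest for ERCC5 and WRN and highest for ERCC2, FANCC and XRCC1, and an asterisk marks the 5 genes under the signal filter.

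The routes differed in where their members lay. Against the mean of the controls, the median log2 difference was -0.34 for end joining (4 measured genes), -0.24 for checkpoint signalling (3), -0.21 for mismatch repair (3) and -0.20 for homologous recombination (9). It was 0.06 for base excision repair (7), 0.11 for the Fanconi genes (3) and 0.24 for nucleotide excision repair (8), and all genes had a median of 0.06. Recombination had 7 of 9 genes (77.8%) below both controls and 1 above, and nucleotide excision had 2 of 8 (25%) below and 5 (62.5%) above. Over all genes, 37.6% lay below both and 47.9% above, so the nucleotide excision split was nearer to that of all genes. Nucleotide excision also held the widest range, from -1.61 for ERCC5 to 1.17 for ERCC2. The ranges of all 7 routes overlapped. With 1 array per condition and 3 to 9 genes in a route the difference between routes was not tested. The median of all genes also varied with signal. It was 0.19 to mutated PNA and 0.23 to untreated in the dimmest of the 10 signal classes. In the second brightest class it was -0.03 and -0.05, and in the brightest 0.06 and 0.08. The part of signal in the route medians was not tested. When each difference was taken relative to the median of the gene's own chromosome, an alternative added after seeing the data, the nucleotide excision median lay only 0.019 above that of all genes.

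**Figure D2:**
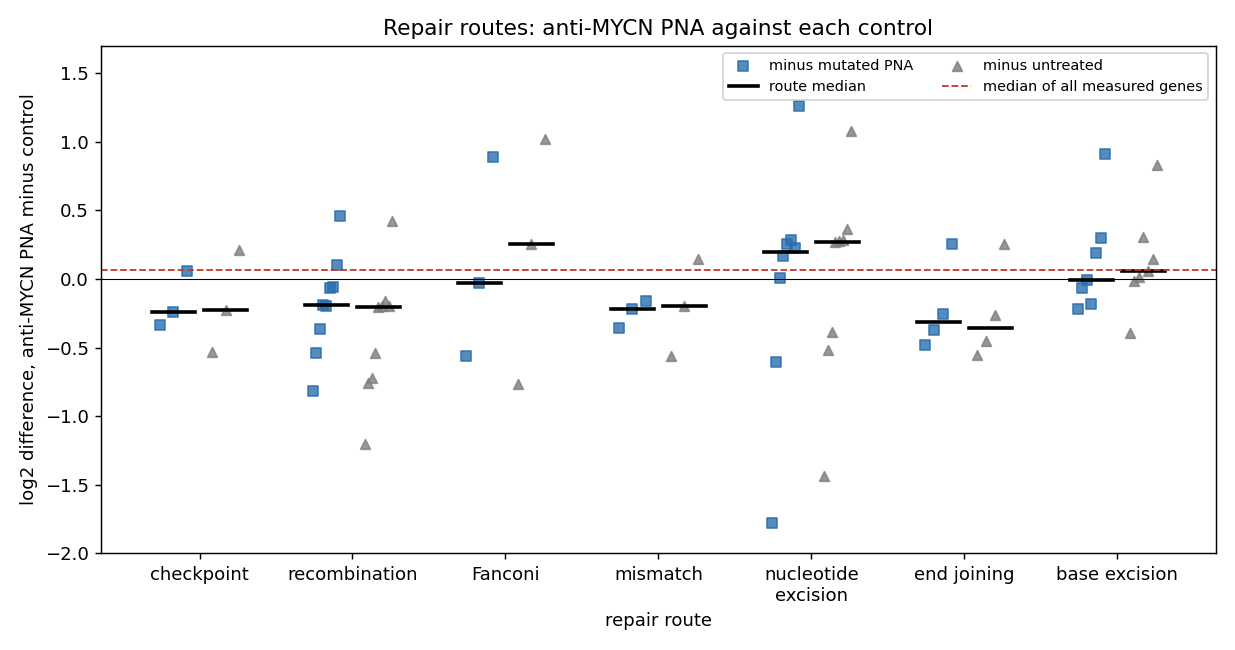
Log2 difference of the anti-MYCN PNA array to the mutated PNA array (squares) and to the untreated array (triangles) for the 37 measured repair genes by route, with route medians as black bars and the median of all 6745 genes, 0.06 against the mean of the controls, as a dashed line. End joining, checkpoint, mismatch and recombination medians lie below zero against both controls, and the nucleotide excision median lies above it.

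By their brightest probe sets, the checkpoint kinases that are measured read slightly low or near the controls in anti-MYCN PNA cells. ATR, the kinase activated by stalled replication forks, had a signal of 363 in anti-MYCN PNA, 457.5 in mutated PNA and 525 in untreated cells, with log2 differences of -0.34 to mutated PNA and -0.54 to untreated. Pairs of log2 differences or ratios below are given in that order of the controls. CHEK1, the effector kinase downstream of ATR, read 525 in anti-MYCN PNA cells, against 622 in mutated PNA and 615 in untreated cells. Both genes were thus lowest on the anti-MYCN PNA array and inside the control range of like signal, which was 0.56 and 0.50. Their second probe sets pointed the same way: that of ATR read 129 in anti-MYCN PNA, against 213 in mutated PNA and 216 in untreated cells. Its log2 differences of -0.72 and -0.74 were larger than those of the brightest and past 1.5-fold. That of CHEK1 read 414 in anti-MYCN PNA, against 553 in mutated PNA and 577 in untreated cells. CHEK2, the effector kinase downstream of ATM, read 416 in anti-MYCN PNA, against 400.3 in mutated PNA and 359 in untreated cells. It was above both controls by no more than 0.21.

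ATM, the kinase activated by double-strand breaks, could not be given a direction. Its brightest probe set, with the suffix _x_at that marks probes matching other transcripts too, read 122 in anti-MYCN PNA, 74.7 in mutated PNA and 107 in untreated cells. The other 2 read 57.7 in anti-MYCN PNA, against 116 in mutated PNA and 118 in untreated cells, and 14.3 in anti-MYCN PNA, against 46.5 in mutated PNA and 47.1 in untreated cells. The first was thus higher than both controls in anti-MYCN PNA cells and the other 2 lower, and all 3 had a mean signal under the filter. For genes so dim the floor of 23.4, below which signals were set to it before log2 was taken, shortens differences.

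In homologous recombination the sensor complex of broken ends, formed by MRE11, RAD50 and NBN, had all 3 members below both controls. MRE11, its nuclease, had a signal of 147 in anti-MYCN PNA, 214 in mutated PNA and 249 in untreated cells, with log2 differences of -0.54 and -0.76. RAD50, the tethering ATPase whose promoter E-box spans the start site, read 212 in anti-MYCN PNA, against 274 in mutated PNA and 350.0 in untreated cells. NBN, the subunit that recruits ATM, read 489 in anti-MYCN PNA, against 559.8 in mutated PNA and 563 in untreated cells. The smaller difference of each lay within the control range of like signal, which was 0.72 for MRE11, 0.64 for RAD50 and 0.50 for NBN. Further probe sets of NBN were less uniform: 2 measured ones read 194 in anti-MYCN PNA, against 180.2 in mutated PNA and 260 in untreated cells, and 173 in anti-MYCN PNA, against 163 in mutated PNA and 263 in untreated cells, between the controls, and a dim one read 70.1 in anti-MYCN PNA, against 114 in mutated PNA and 138 in untreated cells. A dim second probe set of RAD50 read 14.6 in anti-MYCN PNA, against 81.1 in mutated PNA and 59.8 in untreated cells, and that of MRE11 was near or below the floor on all arrays.

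WRN and BLM, the RecQ helicases whose loss causes Werner and Bloom syndromes, were both lowest in anti-MYCN PNA cells. WRN had a signal of 124 in anti-MYCN PNA, 219 in mutated PNA and 285 in untreated cells, 56.6% of mutated PNA and 43.5% of untreated, and its smaller log2 difference of -0.82 exceeded the control range of 0.72. BLM read 783 in anti-MYCN PNA, against 891 in mutated PNA and 1136 in untreated cells. Its log2 differences were -0.19 and -0.54, while the controls themselves stood 0.35 apart, with mutated PNA the lower.

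BRCA1, BARD1 and RAD51C stayed near the controls. BRCA1, the ubiquitin ligase that promotes recombination, read 355 in anti-MYCN PNA, 369.5 in mutated PNA and 398 in untreated cells. Its partner BARD1 read 618 in anti-MYCN PNA, against 647 in mutated PNA and 709 in untreated cells. RAD51C, a mediator of strand exchange, read 959 in anti-MYCN PNA, against 894 in mutated PNA and 1097 in untreated cells, and so lay between the controls. Second probe sets of BRCA1 and RAD51C differed from the first in direction against mutated PNA. That of BRCA1 read 167 in anti-MYCN PNA, against 136 in mutated PNA and 180.5 in untreated cells. That of RAD51C read 671 in anti-MYCN PNA, against 699 in mutated PNA and 750.1 in untreated cells. RAD54L, the motor protein that drives strand invasion, was the only measured recombination member above both controls, with 841 in anti-MYCN PNA, against 612 in mutated PNA and 627 in untreated cells. Its log2 differences of 0.46 and 0.42 lay at the edge of the control range, 0.46. RAD52, an annealing protein, read 83.4 in anti-MYCN PNA, against 85.8 in mutated PNA and 80.0 in untreated cells, under the filter, and its other 2 probe sets were below the floor on all arrays.

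The Fanconi genes pointed in opposite directions. FANCC, a subunit of the core complex that ubiquitinates FANCI and FANCD2, had a signal of 562 in anti-MYCN PNA, 303 in mutated PNA and 277 in untreated cells. That is 1.85 times mutated PNA and 2.03 times untreated, and its smaller log2 difference of 0.89 exceeded the control range of 0.56. FANCI, a substrate of that complex that marks the crosslink, read 727 in anti-MYCN PNA, against 1074 in mutated PNA and 1239 in untreated cells. Its log2 differences were -0.56 and -0.77, past a control range of 0.42, and a second probe set read 816 in anti-MYCN PNA, against 888 in mutated PNA and 1007 in untreated cells. FANCG, another core subunit, read 928 in anti-MYCN PNA, against 945 in mutated PNA and 779 in untreated cells, between the controls.

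All 3 measured mismatch repair genes read lower than mutated PNA, by small amounts. PMS1, a MutL homologue, read 1054 in anti-MYCN PNA, 1349.8 in mutated PNA and 1555 in untreated cells, with log2 differences of -0.36 and -0.56. MSH6, a MutS homologue that recognises base mismatches, read 2917 in anti-MYCN PNA, against 3395 in mutated PNA and 3352 in untreated cells, and a second probe set 1676 in anti-MYCN PNA, against 1717 in mutated PNA and 1847 in untreated cells. MSH3, a MutS homologue that recognises loops, read 358 in anti-MYCN PNA, against 401.5 in mutated PNA and 324 in untreated cells, between the controls. A dim probe set of MSH6 was below or near the floor on all arrays. A dimmer probe set of MSH3 read 134 in anti-MYCN PNA, against 184 in mutated PNA and 174 in untreated cells. By its smaller difference, none exceeded the control range of like signal.

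Nucleotide excision repair held both genes that passed the 2-fold mark. ERCC5, the XPG nuclease that cuts 3′ of a lesion, had a signal of 75 in anti-MYCN PNA, 257 in mutated PNA and 203 in untreated cells. It was thus 29.1% of mutated PNA and 37.0% of untreated, with log2 differences of -1.78 and -1.43 against a control range of 0.72. ERCC2, the XPD helicase of the factor TFIIH, went the other way at 229 in anti-MYCN PNA, against 95.3 in mutated PNA and 108 in untreated cells. The ratios were 2.40 and 2.12, and the smaller log2 difference of 1.08 exceeded the wide control range of its dim class, 0.94. Both control signals of ERCC2 lay below the filter of 117, so it was measured only through its anti-MYCN PNA signal, and it was under 2-fold with quantile normalization, median scaling, a pseudocount of 50, or the chromosome median subtracted. ERCC3, the partner helicase of ERCC2 in TFIIH, read 469 in anti-MYCN PNA, against 467 in mutated PNA and 614 in untreated cells, and showed no like shift.

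The damage sensors of this route lay a little above both controls. DDB1 and DDB2 form the complex that recognises ultraviolet lesions in chromatin. DDB1 had a signal of 3503 in anti-MYCN PNA, 2879 in mutated PNA and 2871 in untreated cells. DDB2 had 156 in anti-MYCN PNA, against 130.1 in mutated PNA and 129 in untreated cells. The log2 differences were 0.28 and 0.29 for DDB1 and 0.26 and 0.28 for DDB2. XPC, the sensor of helix distortion, read 451 in anti-MYCN PNA, against 402 in mutated PNA and 374 in untreated cells. ERCC1, the partner of the ERCC4 nuclease that cuts 5′ of a lesion, read 448 in anti-MYCN PNA, against 383 in mutated PNA and 348 in untreated cells. None of these 4 exceeded its control range. XPA, the scaffold that verifies damage, was lower instead, at 296 in anti-MYCN PNA, against 451 in mutated PNA and 424 in untreated cells, with log2 differences of -0.61 and -0.52 beside a control range of 0.56. ERCC4 itself read 8.2 in anti-MYCN PNA, against 44.0 in mutated PNA and 23.4 in untreated cells, and ERCC6, which couples repair to transcription, read 67.1 in anti-MYCN PNA, against 55.4 in mutated PNA and 35.4 in untreated cells, both under the filter.

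In end joining the DNA-dependent protein kinase and its DNA-binding subunits did not shift alike. PRKDC, its catalytic subunit, had a signal of 1391 in anti-MYCN PNA, 1944 in mutated PNA and 2043 in untreated cells, with log2 differences of -0.48 and -0.55 beyond a control range of 0.37. A second probe set read 848 in anti-MYCN PNA, against 928 in mutated PNA and 965 in untreated cells, and another, dim, 103.5 in anti-MYCN PNA, against 73.2 in mutated PNA and 23.9 in untreated cells. XRCC5 and XRCC6 encode the Ku80 and Ku70 proteins that form the ring around a broken end. XRCC5 read 4851 in anti-MYCN PNA, against 6281 in mutated PNA and 6639 in untreated cells, a smaller log2 difference of -0.37 with a control range of 0.28, but a second probe set was level at 4614 in anti-MYCN PNA, against 4583 in mutated PNA and 4457 in untreated cells. XRCC6 was above both controls at 10734.5 in anti-MYCN PNA, against 8997.5 in mutated PNA and 8995 in untreated cells, a log2 difference of 0.25 in the plain scaling and of -0.01 once the median of chromosome 22 was subtracted. A dim second probe set of XRCC6 read 45.5 in anti-MYCN PNA, against 36.6 in mutated PNA and 51.5 in untreated cells, between the controls.

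LIG4 and XRCC4 form the ligase that seals the ends. LIG4 was measured by a single dim probe set, at 34.4 in anti-MYCN PNA, 121 in mutated PNA and 125 in untreated cells, 28.4% and 27.4% of the controls. Its mean signal of 93.7 missed the filter, although both controls were above it, so LIG4 is not among the genes counted above, and it would be a further gene at least 2-fold lower with no filter. XRCC4, by its brightest probe set, which has the suffix _x_at, read 229 in anti-MYCN PNA, against 273 in mutated PNA and 275 in untreated cells. Another measured probe set of XRCC4 read 81.3 in anti-MYCN PNA, against 276 in mutated PNA and 257 in untreated cells, with log2 differences of -1.76 and -1.66. Among probe sets past the filter these are the most discordant of any member, 1.51 apart in their log2 difference to mutated PNA. With dim probe sets included, those of ATM and XRCC4 lie still further apart, and which of them follows the XRCC4 transcript cannot be told from the signals. Of the dim ones, one read 70.1 in anti-MYCN PNA, against 98.3 in mutated PNA and 133 in untreated cells, and the other 62.9 in anti-MYCN PNA, against 17.7 in mutated PNA and 31.2 in untreated cells.

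Base excision and single-strand break repair held the pair of measured genes that lay closest to both controls, PARP1 and APEX1. PARP1, the sensor that builds poly(ADP-ribose) at nicks, had a signal of 4596 in anti-MYCN PNA, 4629.9 in mutated PNA and 4554 in untreated cells. APEX1, the endonuclease that cuts abasic sites and whose promoter holds 3 E-boxes, read 6020 in anti-MYCN PNA, against 6285 in mutated PNA and 6077 in untreated cells. Neither was more than 0.06 from a control on the log2 scale. XRCC1, the scaffold of single-strand break repair, stood out at 588 in anti-MYCN PNA, against 312 in mutated PNA and 330.4 in untreated cells. Its ratios were 1.89 and 1.78, and its smaller log2 difference of 0.83 exceeded the control range of 0.56. LIG3, the ligase that XRCC1 stabilises, read 502 in anti-MYCN PNA, against 439.6 in mutated PNA and 482 in untreated cells, so the partners did not share the shift. A second probe set of LIG3 read 341 in anti-MYCN PNA, against 344.5 in mutated PNA and 317 in untreated cells, between the controls.

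The glycosylases, which remove damaged bases, differed among themselves by little. UNG, which removes uracil, read 696 in anti-MYCN PNA, 810.2 in mutated PNA and 914 in untreated cells, with log2 differences of -0.22 and -0.39. MUTYH, which removes adenine opposite oxidised guanine, read 515 in anti-MYCN PNA, against 418 in mutated PNA and 465 in untreated cells. OGG1, which removes oxidised guanine, read 435 in anti-MYCN PNA, against 492 in mutated PNA and 351 in untreated cells, between the controls. Its other measured probe set read 331 in anti-MYCN PNA, against 244 in mutated PNA and 221 in untreated cells, and a dim one 89.7 in anti-MYCN PNA, against 35.7 in mutated PNA and 38.9 in untreated cells, both above both controls.

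Of the 37 measured genes, 14 had several measured probe sets, and these allow a check within the arrays. In 6 of the 14 (ATR, CHEK1, FANCI, MSH6, PRKDC and XRCC4) every measured probe set was below both controls, in ERCC1 both were above, and in 7 the probe sets disagreed or lay between the controls. Probe sets of a gene share the RNA and the array, so they speak to the probe set and not to the condition. ERCC5, ERCC2, FANCC, XRCC1 and WRN, the 5 genes past 1.5-fold, had a single probe set each.

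**Figure D3:**
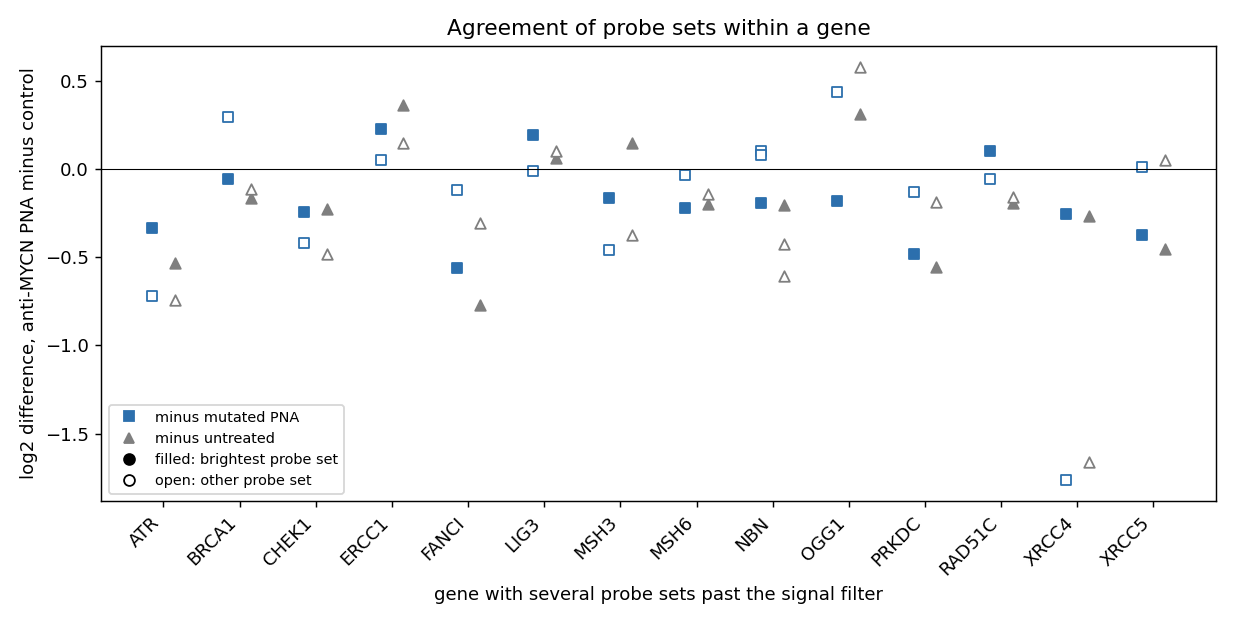
Log2 difference of anti-MYCN PNA to mutated PNA (squares) and to untreated (triangles) for each measured probe set of the 14 repair genes that had several, with the brightest probe set filled. The probe sets of XRCC4 lie 1.51 apart, and those of ATR, CHEK1, FANCI, MSH6 and PRKDC are all below zero.

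Members known to be transcribed mostly around G1/S and S phase lay mostly a little below the controls. Of 11 such genes listed, 9 were measured. CHEK1, BRCA1, BARD1, BLM, FANCI, MSH6 and UNG were below both controls, RAD54L above both, and FANCG between them. Against the mean of the controls, their median log2 difference was -0.21, beside -0.02 for the remaining 28 repair genes and 0.06 for all genes. Over all genes, 37.6% lay below both controls. None of the 9 was 1.5-fold from both controls, beside 8.27% of all genes higher and 7.37% lower, too few genes to tell a difference from that share. All 9 are also counted in the routes above, BRCA1, BARD1, BLM and RAD54L among the recombination genes.

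The median difference varied by chromosome. Over all measured genes, chromosome 19 had the highest median of 23 chromosomes against the mean of the controls, 0.33 over 435 genes, and chromosome 13 the lowest, -0.24 over 122 genes. The 3 repair genes of chromosome 19, ERCC1, ERCC2 and XRCC1, were all above both controls, as were 72.4% of all genes there. ERCC5, the measured repair gene of chromosome 13, was below both, as were 57.4% of all genes there, and LIG4 is on chromosome 13 too. The repair genes of chromosomes 8 (NBN, PRKDC and WRN) and 2 (BARD1, ERCC3, MSH6, PMS1 and XRCC5) had 7 of 8 members below both. Those chromosomes had medians of -0.11 and -0.07, with 49.8% and 50.1% of all genes below both. On chromosome 22, with the second highest median, 0.25, CHEK2 and XRCC6 were above both controls, as were 65.2% of all genes there. Elsewhere some members went with their chromosome and others against it. On chromosome 11, with a median of 0.19, DDB1 and DDB2 were above both controls and CHEK1 and MRE11 below both. On chromosome 17, with a median of 0.24, LIG3 was above both, BRCA1 below both and RAD51C between. UNG was below both on chromosome 12, where the median was 0.10. On chromosome 15, whose median was 0.0066, BLM and FANCI stood at -0.36 and -0.67. After the chromosome median was subtracted, ERCC5 remained at least 2-fold lower, with a smaller difference of -1.20. FANCC and ERCC2 then kept 0.81 and 0.77, WRN -0.76 and XRCC1 0.52, whereas ERCC1 no longer lay on the same side of both controls. MRE11, XPA and FANCI, at -0.74, -0.62 and -0.55, then lay further from both controls than XRCC1 did. The part of chromosome position in these differences was not tested.

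**Figure D4:**
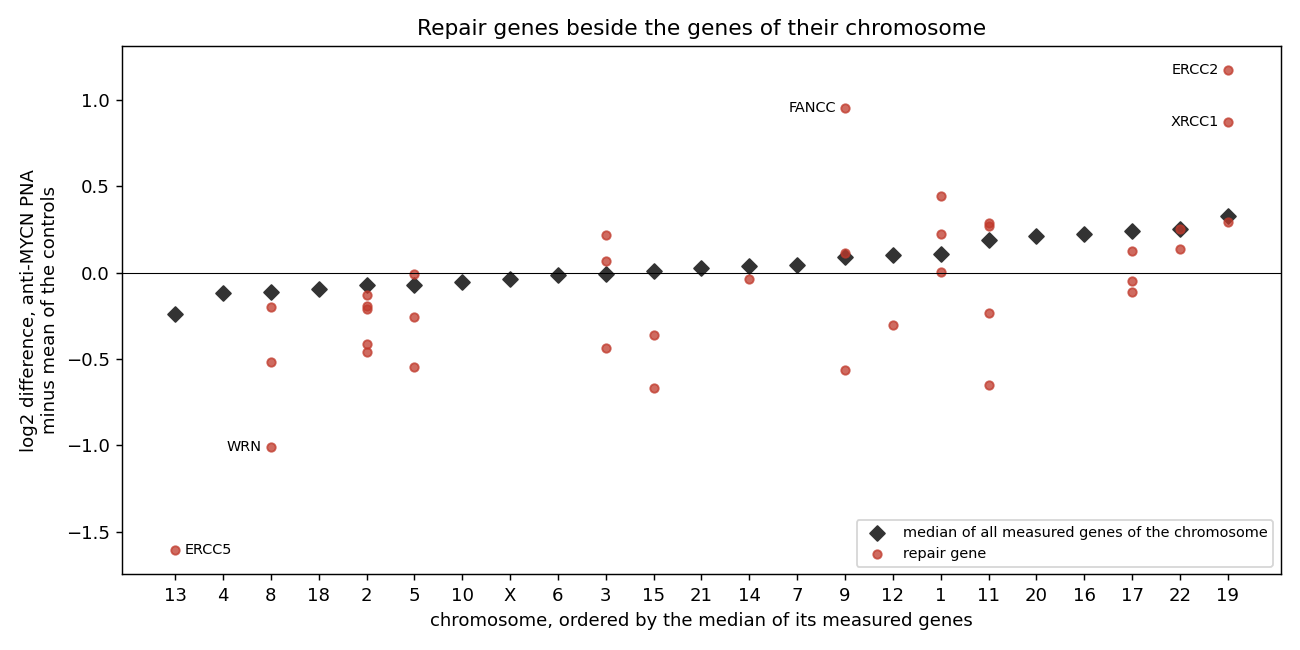
Log2 difference between the anti-MYCN PNA array and the mean of the controls for the 37 measured repair genes (circles) above or below the median of all measured genes of the same chromosome (diamonds), with chromosomes ordered by that median. The medians run from -0.24 on chromosome 13 to 0.33 on chromosome 19. ERCC5, WRN, FANCC, ERCC2, MRE11, FANCI, XPA and XRCC1 lie far from them.

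A wider list of 98 other repair genes, drawn up by pathway with earlier results of these data known, was set beside the members. Of these, 74 had a probe set that named them alone and 67 were measured. Among the 67, 25 lay above both controls and 37 below both, with a median of -0.17 to the mean of the controls. At 1.5-fold 5 of the 67 were higher than both controls and 8 lower, beside 8.27% and 7.37% of all genes, and at 2-fold 1 and 2, beside 1.16% and 1.26%. On the lower side were the helicase-nuclease DNA2, at 61.4 in anti-MYCN PNA, against 226 in mutated PNA and 181 in untreated cells, and BRIP1, the helicase partner of BRCA1, at 52.6 in anti-MYCN PNA, against 200.4 in mutated PNA and 137 in untreated cells. Both belong to the dimmest class, with a control range of 0.94. REV3L, the catalytic subunit of a translesion polymerase, read 399.9 in anti-MYCN PNA, against 745 in mutated PNA and 759 in untreated cells, and the helicase RECQL read 377 in anti-MYCN PNA, against 687 in mutated PNA and 727 in untreated cells. The checkpoint clamp loader RAD17 read 485 in anti-MYCN PNA, against 812 in mutated PNA and 912 in untreated cells. TOPBP1, which activates ATR, read 989.7 in anti-MYCN PNA, against 1508 in mutated PNA and 1556 in untreated cells. The thymine glycosylase TDG read 1371 in anti-MYCN PNA, against 2157 in mutated PNA and 2306 in untreated cells, and the Fanconi core subunit FANCF read 122 in anti-MYCN PNA, against 224 in mutated PNA and 249 in untreated cells. Of the clamp that RAD17 loads, RAD1 lay below both controls by at least 0.23 on the log2 scale, RAD9A above both by at least 0.37 and HUS1 above both by at least 0.03.

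On the higher side of that list was the helicase RECQL5, at 204.5 in anti-MYCN PNA, against 99.2 in mutated PNA and 101 in untreated cells. It was the gene at least 2-fold higher, and like ERCC2 it was measured only through its anti-MYCN PNA signal, since both controls lay below the filter. The recombination mediator XRCC3 read 248 in anti-MYCN PNA, against 125.2 in mutated PNA and 125.2 in untreated cells. The structure-specific nuclease MUS81 read 594 in anti-MYCN PNA, against 341 in mutated PNA and 356 in untreated cells. LIG1, the replicative ligase, read 793 in anti-MYCN PNA, against 456 in mutated PNA and 507 in untreated cells, and the Fanconi core subunit FANCE read 363 in anti-MYCN PNA, against 222 in mutated PNA and 229.9 in untreated cells. LIG1 is the counterpart of LIG3, which stayed near the controls. By route, the nucleotide excision members had 2 of 8 below both controls and a median of 0.24, against 7 of 10 below and a median of -0.29 for the other genes of that route. The Fanconi members had a median of 0.11, against -0.35 for 6 other Fanconi genes, and the checkpoint members -0.24, against 0.02 for 12 other checkpoint genes, of which 6 were above both controls. The recombination members had a median of -0.20, against -0.19 for 17 others, 11 of them below both controls. The base excision members had 0.06, against -0.04 for 14 others. Relative to the median of all genes, members and others had opposite signs in nucleotide excision (0.18 and -0.36) and Fanconi genes (0.05 and -0.41). The checkpoint medians were then both negative (-0.30 and -0.04). Base excision members stood level with all genes (0.00055), with the others at -0.11. For mismatch repair and end joining, 1 other gene each was measured.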

How the data were processed

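Biotin-labelled total RNA was hybridised to Affymetrix arrays, 1 per condition. The authors deposited linear intensities, 1 for each probe set; the submitters' processing notes name MAS5 and GCOS. The 2% trimmed mean was 500.2 on all 3 arrays. Each array was scaled to a common 2% trimmed mean, a floor was set at the pooled 25th percentile (23.4), and values were put on the log2 scale. Symbols came from GEO's platform annotation, updated through Entrez identifiers in RefSeq's GRCh38.p14 gene table (19052 of 19064 single-gene probe sets matched), and 9899 single-gene probe sets passed the filter of 117. MAS5 scales by 1 factor, so stronger bright signals on an array remain: the highest was 50332 on the anti-MYCN PNA, 32467 on the mutated PNA and 33282 on the untreated array. The number of arrays limits the precision. Nothing states whether the cultures were independent. To be apart from both controls, a gene needs both log2 differences past the threshold in the same direction. Every member is named by its brightest probe set. Other probe sets are named where they differ in direction or lie 1.5-fold from both controls, and some more for comparison. Other repair genes are named where 1.5-fold from both controls. The members and lists were chosen with earlier results of these data known. The procedure was tested on simulated data. Alternatives varied scaling, filter, floor, probe set choice and threshold. Tools were matplotlib 3.10.9, scipy 1.17.1, pandas 2.3.3 and numpy 2.4.6 under Python 3.11.15.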

Additional observations from a re-analysis of the deposited data

How the results depend on the processing

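With 1 array per condition, no setting gives an error. No paired analysis was possible because each group holds a single array. No gene past 1.5-fold changed direction in any setting that measured it. Of 37 measured genes, 12 lay above and 19 below both controls. This became 13 and 20 with quantile normalization and 8 and 23 with median scaling, which moved the median of all genes to -0.13. Medians of routes are therefore given relative to that of all genes, where the 37 had -0.17 (-0.21 to -0.10 over all settings). For genes at least 2-fold higher than both controls, 1 by default, the count was 0 with quantile normalization, median scaling, the 75th percentile filter, a pseudocount of 50, the chromosome median subtracted and a 3-fold threshold, and 3 at 1.5-fold. For genes lower than both, 1 by default, it was 2 with no filter (LIG4 added), 0 with the 75th percentile filter and at 3-fold, and 2 at 1.5-fold. Against mutated PNA alone 1 gene was higher and 1 lower. The higher count was 0 with the 75th percentile filter, the pseudocount, the chromosome median subtracted and 3-fold, and 3 at 1.5-fold, and the lower count 2 with no filter, 2 with the median over probe sets, 0 with the 75th percentile filter and 3 at 1.5-fold. Against untreated alone 2 were higher and 2 lower. The higher count was 0 with quantile normalization, median scaling, the 75th percentile filter, the pseudocount, the chromosome median subtracted and 3-fold, and 1 without probe sets ending in _x_at or _s_at. The lower count was 0 with the 75th percentile filter and at 3-fold, 1 with the pseudocount and 5 at 1.5-fold. The stricter filter left 17 genes. Relative to all genes, the checkpoint median (-0.30) was -0.070 with no filter, -0.41 with the median over probe sets, -0.52 without the suffixed probe sets and -0.41 with the chromosome median subtracted. Recombination (-0.26) was -0.15 and the Fanconi genes (0.05) -0.29 with the 75th percentile filter, and the Fanconi genes -0.31 without the suffixed probe sets. End joining (-0.40) was -0.17 without them and -0.26 with the chromosome median subtracted, where mismatch repair (-0.27) was -0.13 and nucleotide excision (0.18) was 0.019. XRCC4 moved to -0.99 with the median over probe sets. The causes were not tested beyond the fewer genes left by the filters.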
